A study of Mus musculus with 4 samples.

Results

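The genes described are 35 genes of glycolysis and of the response to low oxygen, found by symbol among the 25819 rows of the deposited expression table, with all 35 found once. Of these, 23 belong to glycolysis and the use of its product, and 12 to oxygen sensing and the targets of hypoxia-inducible factor (HIF). RNA-Seq was made from the whole urogenital sinus (UGS), the embryonic structure from which the prostate arises, of male mouse embryos that were wild type or carried the *Tbx18GFP/GFP* genotype, at embryonic stages E16.5 and E18.5. In *Tbx18GFP/GFP* embryos a GFP knock-in disrupts both copies of *Tbx18*, a T-box transcription factor of mesenchymal cells, and the wild type embryos were littermates on the same B6C3-F1 hybrid background. Prostate budding begins between these stages, and the study compared null with wild type UGS to find expression differences that come before prostate defects. Each of the 4 libraries held RNA pooled from 3 embryos of 1 genotype and stage, so there was 1 library per group, no spread between replicates and no test of a difference.

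Glycolysis splits glucose into pyruvate and makes ATP without oxygen, in a preparatory phase that spends ATP and a payoff phase that returns it, and pyruvate that does not enter the mitochondria is turned into lactate and exported. When oxygen falls, prolyl hydroxylases no longer mark the HIF alpha subunits for destruction, and HIF binds a short sequence at its target genes and raises glucose transporters, most glycolytic enzymes and genes of angiogenesis, pH control and collagen modification. HIF1A is controlled mainly through the stability of its protein, which RNA-Seq does not measure, and embryonic tissue runs glycolysis at a high rate also where oxygen is sufficient.

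Values are FPKM, reads scaled by the length of the transcript and by sequencing depth, as the authors deposited them. Where 4 values are given for a gene, they stand in the order E16.5 wild type, E16.5 *Tbx18GFP/GFP*, E18.5 wild type, E18.5 *Tbx18GFP/GFP*. From the FPKM that a single read gave on 15 to 27 olfactory receptor genes per library, the libraries held an estimated 62700000, 54600000, 28500000 and 51400000 mapped reads. The E18.5 wild type library stood apart. It had the lowest depth and the lowest sum of FPKM, and it was the lowest of the 4 libraries in 63.7% of the 15023 genes that reached 1 FPKM in any library. Its difference from the E18.5 *Tbx18GFP/GFP* library followed the GC content of the transcript (Spearman's rho 0.44 across 13011 genes, which share their libraries and are not independent), where the difference at E16.5 did not (0.02 across 13477 genes). The members are therefore also described from the other 3 libraries. Their comparisons were not free of GC content either. For the E18.5 *Tbx18GFP/GFP* library rho was -0.23 against E16.5 *Tbx18GFP/GFP* and -0.18 against E16.5 wild type, each across 13427 genes. Markers of the labelled tissue were present, with all 13 genes of the epithelium and all 8 of the mesenchyme of the UGS at 1 FPKM or more in every library and summed levels of 596 to 891 and 514 to 555 FPKM. Immediate early and stress genes summed to 83.3 to 104 FPKM. *Tbx18* itself was read at 3.47, 2.50, 3.16 and 2.93 FPKM. Whether the transcript of the knock-in allele is counted in that row was not tested, so the row is no check of the labels, and the libraries are named here as labelled. In pooled whole tissue, fewer cells of a type and less RNA per cell cannot be told apart.

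All 35 genes were detected, and 34 of them had at least 1 FPKM in every library. Together they summed to 2756, 2790, 2645 and 3262 FPKM. The most abundant was *Gapdh*, glyceraldehyde-3-phosphate dehydrogenase, with 848, 822, 1066 and 927 FPKM. It alone made up 28.4% to 40.3% of the sum, so the sum says little of the other genes. The next levels per length belonged to *Aldoa*, *Eno1*, *Ldha*, *Pkm2*, *Pgk1* and *Pgam1*, which lay between 99.1 and 328 FPKM. At the other end stood *Car9*, a membrane carbonic anhydrase that is among the most oxygen-dependent HIF targets in other tissues, with 0.761, 0.895, 0.552 and 1.28 FPKM, or an estimated 87, 89, 29 and 120 reads. Besides *Car9*, levels under 6 FPKM in at least 1 library were found for *Hk2*, *Pgam2*, *Slc16a1*, *Slc16a3*, *Adm* and *Ankrd37*.

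**Figure D1:**
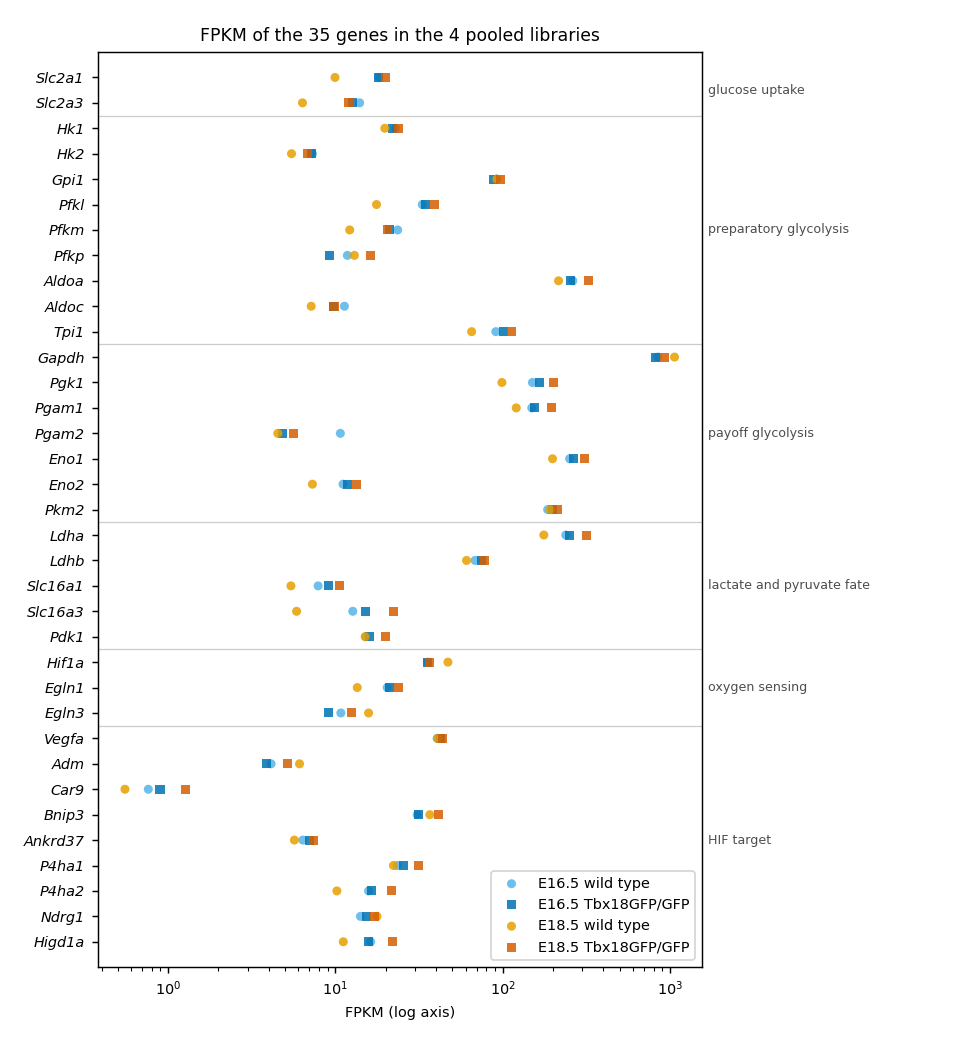
FPKM of the 35 genes (log axis) in the 4 pooled libraries, 1 point per library, with genes grouped by role. The E18.5 wild type library (yellow circles) is the lowest in 25 of 35 genes, where it is the lowest in 63.7% of all genes. The E18.5 *Tbx18GFP/GFP* library (orange squares) is the highest in 25 of 35, where it is the highest in 20% of all genes. Levels run from *Car9* near 1 FPKM to *Gapdh* near 1066 FPKM. *Car9* reached 1 FPKM in the E18.5 *Tbx18GFP/GFP* library only and could be counted only as highest there.

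HIF binds DNA at a core that reads ACGTG or GCGTG. The promoters of the 7 members that passed 2-fold between genotypes at either stage are shown for this core, as the 250 bases before the start of the RefSeq transcript (build GRCm38.p6, 5′ to 3′ on the gene's strand), with every ACGTG or GCGTG on either strand in capitals. On the opposite strand the cores read CACGT and CACGC, and overlapping matches were merged. The windows lie at chr4:119108495-119108744 (plus strand) for *Slc2a1*, chr10:78009808-78010057 (minus) for *Pfkl*, chrX:106186850-106187099 (plus) for *Pgk1*, chr11:5803797-5804046 (minus) for *Pgam2*, chr11:120948817-120949066 (plus) for *Slc16a3*, chr4:43506776-43507025 (plus) for *Car9* and chr11:54100674-54100923 (plus) for *P4ha2*.
Slc2a1: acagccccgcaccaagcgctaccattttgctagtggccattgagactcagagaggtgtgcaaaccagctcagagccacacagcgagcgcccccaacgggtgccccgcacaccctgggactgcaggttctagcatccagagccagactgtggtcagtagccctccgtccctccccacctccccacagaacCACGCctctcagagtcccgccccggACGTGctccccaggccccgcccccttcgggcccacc
Pfkl: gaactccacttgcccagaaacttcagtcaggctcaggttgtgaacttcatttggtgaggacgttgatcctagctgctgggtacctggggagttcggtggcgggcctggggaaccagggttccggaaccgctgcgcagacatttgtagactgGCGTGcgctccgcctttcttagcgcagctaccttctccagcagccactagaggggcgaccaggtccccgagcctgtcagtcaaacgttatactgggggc
Pgk1: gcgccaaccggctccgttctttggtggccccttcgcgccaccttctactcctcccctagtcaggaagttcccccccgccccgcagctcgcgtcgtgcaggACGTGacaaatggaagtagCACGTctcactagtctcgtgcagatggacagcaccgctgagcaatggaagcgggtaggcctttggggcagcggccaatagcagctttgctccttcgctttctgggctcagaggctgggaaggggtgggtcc
Pgam2: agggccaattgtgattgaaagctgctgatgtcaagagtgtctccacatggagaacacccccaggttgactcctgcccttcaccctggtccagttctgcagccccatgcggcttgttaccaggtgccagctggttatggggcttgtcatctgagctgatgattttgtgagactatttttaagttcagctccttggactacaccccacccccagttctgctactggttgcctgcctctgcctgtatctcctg
Slc16a3: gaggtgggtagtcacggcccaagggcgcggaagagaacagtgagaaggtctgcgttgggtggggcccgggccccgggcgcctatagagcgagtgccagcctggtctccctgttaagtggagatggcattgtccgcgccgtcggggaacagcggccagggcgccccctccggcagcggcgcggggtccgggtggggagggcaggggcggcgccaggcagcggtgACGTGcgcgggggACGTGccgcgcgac
Car9: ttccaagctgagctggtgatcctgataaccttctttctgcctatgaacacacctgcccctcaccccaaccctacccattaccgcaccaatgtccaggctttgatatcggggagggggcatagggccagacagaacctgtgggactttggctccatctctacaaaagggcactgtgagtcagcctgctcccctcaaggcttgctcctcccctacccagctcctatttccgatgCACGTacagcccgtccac
P4ha2: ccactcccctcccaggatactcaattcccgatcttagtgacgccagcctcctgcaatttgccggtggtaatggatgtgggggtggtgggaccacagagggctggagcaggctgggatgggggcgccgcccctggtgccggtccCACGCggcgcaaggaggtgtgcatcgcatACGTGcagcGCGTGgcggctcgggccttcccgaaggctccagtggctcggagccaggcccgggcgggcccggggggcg

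Of these 7, the *Slc2a1*, *Pgk1* and *Slc16a3* windows each held 2 cores, at 61 and 36 bases, at 150 and 131 bases and at 27 and 14 bases before the start. The *P4ha2* window held 3, at 107, 78 and 69 bases before the start, with another core 11 bases into the transcript. The *Pfkl* and *Car9* windows held 1 each and the *Pgam2* window none. RefSeq windows running from 250 bases before to 50 after the start were at hand for 33 of the 35 genes, all but *Slc2a3* and *Ndrg1*. A core stood in at least 1 window of 29 of them, and in none of those of *Gpi1*, *Tpi1*, *Eno2* and *Pgam2*. Counted by window, 36 of 46 (78.3%) held a core, against 43.8% of all 32851 promoter windows of that length, and 28 (60.9%) held 2 or more, against 17.3%. The windows of these genes were also richer in GC, with a median of 62.2% against 52.7%, and the core itself is rich in GC. Some windows of the same gene overlap, as for *Eno1*, *Aldoa* and *Pfkm*, so a core could be counted more than once. HIF targets and enzymes that HIF raises were chosen as members, so a share above that of all windows came with the choice and is no test. A match is a stretch of letters and does not show that HIF was bound there.

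At E16.5 the genes were nearly equal in the 2 genotypes. Of the 34 that reached 1 FPKM in either library, 21 were higher and 13 lower in *Tbx18GFP/GFP*, where 54.2% of the 14761 genes tested were higher, and the median log2 fold change was 0.05 against 0.01 over all genes. With equal library sums 8 were higher, with a median of -0.06 against -0.09 over all genes. Under equal library sums, median centring, upper quartile scaling and a subtracted trend on transcript length and GC content, 8 stayed higher and 13 stayed lower in every case, and 13 changed sign in at least 1. How many of all genes kept their sign in every case was not counted. None passed 2-fold upward (0.481% of all genes) and 1 passed it downward (1.17% of all genes). That gene was *Pgam2*, the muscle isozyme of phosphoglycerate mutase, whose level was 10.7 FPKM in wild type against 4.80 FPKM in *Tbx18GFP/GFP*. The *Tbx18GFP/GFP* value was 0.448-fold wild type, with a 95% exact binomial interval of 0.373 to 0.537 that covers counting error only. *Pgam1*, the form of most tissues, had 149 and 156 FPKM in the same libraries. Markers of skeletal muscle moved with *Pgam2*. All 16 of them were lower in *Tbx18GFP/GFP* at E16.5, with log2 fold changes from -1.56 to -0.70 and summed levels of 1198 and 533 FPKM, and all 8 smooth muscle markers were lower as well, with summed levels of 1160 and 613 FPKM. Their part in the *Pgam2* value was not tested. After *Pgam2* the widest differences at E16.5 were those of *Pfkp* (11.8 FPKM in wild type and 9.27 in *Tbx18GFP/GFP*, log2 fold change -0.35), *Slc16a3* (12.7 and 15.2 FPKM, 0.25) and *Egln3* (10.8 and 9.05 FPKM, -0.25), and the other genes stayed within these.

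At E18.5 most of the genes were higher in *Tbx18GFP/GFP* than in wild type, and so were most genes of the table. Of the 35 genes, 30 were higher and 5 lower, where 69.5% of the 14733 genes tested were higher, and the median log2 fold change was 0.50 against 0.30 over all genes. With the libraries centred on their medians the 30 became 25, where 51.3% of all genes were higher. With the trend on transcript length and GC content subtracted the count was 20, where 50.9% of all genes were higher. With equal library sums it was 19, with a median log2 of 0.08 against -0.12 over all genes. As deposited, 6 of the 35 passed 2-fold upward, or 17.1% of the members against 15.1% of all genes, and none passed it downward (2.89% of all genes). The share past 2-fold was thus near the background. One of the 6, *Car9*, was counted only because it reached 1 FPKM in the *Tbx18GFP/GFP* library, and over genes with 1 FPKM in both libraries 5 of 34 members (14.7%) passed 2-fold upward, against 13% of all genes. The median shift of all genes was a log2 of 0.29. Once that was taken off, the members had a median of 0.22, and with the trend subtracted it was 0.12. Under 4 other scalings (equal library sums, median centring, upper quartile scaling and the subtracted trend) 17 of the 35 stayed higher in every case, the 5 lower genes stayed lower in every case, and 13 changed sign in at least 1. The share of all genes that kept their sign in every case was not counted, so these counts have no background. Markers of other cells moved with this comparison. All 8 smooth muscle markers were higher in *Tbx18GFP/GFP* (7 with the trend subtracted), with a median log2 of 1.16 and summed levels of 1338 and 3656 FPKM. All 6 erythroid markers tested were higher (5 with the libraries centred on their medians), with a median log2 of 2.23 and summed levels of 5861 and 28491 FPKM. The part of either in the members' differences was not tested.

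**Figure D2:**
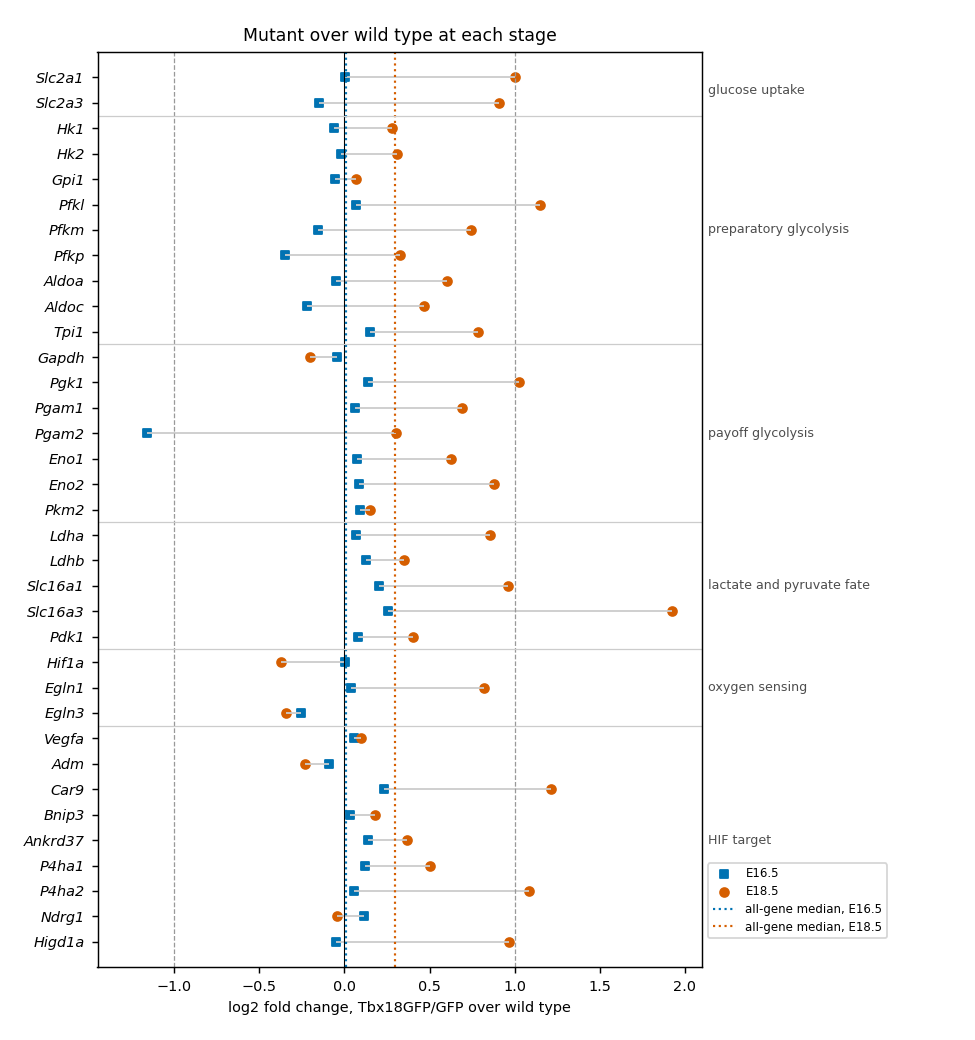
Log2 fold change of *Tbx18GFP/GFP* over wild type at E16.5 (blue squares) and E18.5 (orange circles) for each gene, 1 library per group, with dotted lines at the median of all genes tested (0.01 and 0.30) and dashed lines at 2-fold. At E16.5 all genes but *Pgam2* lie near 0 (*Car9* had under 1 FPKM in both E16.5 libraries and was not counted there). At E18.5 points run from -0.37 (*Hif1a*) to 1.93 (*Slc16a3*).

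Lactate handling held the widest difference. *Slc16a3*, the transporter MCT4 that exports lactate from glycolytic cells, had 12.7, 15.2, 5.86 and 22.3 FPKM. It was lowest in E18.5 wild type and highest in E18.5 *Tbx18GFP/GFP*, and the fold at E18.5 was 3.80 (95% exact binomial interval 3.51 to 4.12, counting error only). It was the 1 member that stayed past 2-fold under each of the 4 other scalings, at a log2 of 1.93 as deposited, 1.64 once the median shift was taken off and 1.37 with the trend subtracted. With the E18.5 wild type library left aside, *Slc16a3* in E18.5 *Tbx18GFP/GFP* was 1.75-fold its E16.5 wild type level and 1.47-fold its E16.5 *Tbx18GFP/GFP* level. *Slc16a1*, the transporter MCT1, had 7.89, 9.07, 5.43 and 10.6 FPKM and a fold of 1.95 at E18.5. *Ldha*, the lactate dehydrogenase subunit that favours lactate, had 238, 250, 176 and 319 FPKM, a fold of 1.81. *Ldhb*, the subunit common in oxidative tissue, had 68.4, 74.8, 60.8 and 77.6 FPKM, and its fold of 1.28 fell below 1 with equal library sums and with the trend subtracted. *Pdk1*, the kinase that holds pyruvate out of the mitochondria, had 15.2, 16.04, 15.1 and 20.0 FPKM, a fold of 1.32 that fell below 1 with equal library sums only. All 5 genes of lactate and pyruvate fate were highest in E18.5 *Tbx18GFP/GFP*, as were 25 of all 35 members and 20% of all genes.

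Glucose uptake differed at E18.5 through the wild type library. *Slc2a1* (GLUT1), the glucose transporter of most embryonic cells, had 18.2, 18.2, 9.95 and 19.9 FPKM. *Slc2a3* (GLUT3), a transporter of higher affinity, had 13.98, 12.6, 6.36 and 11.9 FPKM. The E18.5 wild type value was the low one in both, with folds of 2.003 for *Slc2a1* and 1.87 for *Slc2a3*. Against the E16.5 wild type library, the E18.5 *Tbx18GFP/GFP* level of *Slc2a1* was 1.10-fold and that of *Slc2a3* 0.853-fold. A row of the table that overlaps *Slc2a1*, LOC100503370, had 41.7 to 53.5 FPKM, and how reads were divided between them is not known from the table.

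In the preparatory phase the enzymes differed little at E16.5, where 7 of 9 were slightly lower in *Tbx18GFP/GFP*, against 45.7% of all genes. At E18.5 all 9 were higher in *Tbx18GFP/GFP*, against 69.5% of all genes. For 5 of them the sign at E18.5 changed under another scaling (*Hk1*, *Hk2*, *Gpi1*, *Pfkp* and *Aldoa*). Phosphofructokinase commits sugar to glycolysis, and its liver form *Pfkl* had 33.1, 34.7, 17.6 and 39.1 FPKM, a fold of 2.22 at E18.5. *Pfkm*, the muscle form, had 23.6, 21.1, 12.2 and 20.4 FPKM. *Pfkp*, the platelet form, had 11.8, 9.27, 13.0 and 16.3 FPKM and was the only one of the 3 whose E18.5 wild type level was above its E16.5 wild type level. The hexokinases, which trap glucose in the cell, were near level, with 19.8 to 23.9 FPKM for *Hk1* and 5.47 to 7.29 FPKM for *Hk2*. *Gpi1*, glucose-6-phosphate isomerase, was the most even enzyme of this phase, at 88.3 to 96.6 FPKM. Aldolase splits the sugar into 2 parts, and its main form *Aldoa* had 263, 254, 216 and 328 FPKM, with *Aldoc* at 7.17 to 11.3 FPKM. *Tpi1*, which interconverts these parts, had 91.1, 101, 65.3 and 112 FPKM. Another row within its span, LOC100504270, had 187 to 234 FPKM.

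In the payoff phase 6 of 7 enzymes were higher in *Tbx18GFP/GFP* at E18.5, against 69.5% of all genes. Of the 6, *Eno1*, *Pgam2* and *Pkm2* changed sign under another scaling. *Gapdh* was lower in every scaling (log2 fold change -0.20). *Pgk1*, which makes the first ATP of the pathway, had 151, 166, 99.1 and 202 FPKM, a fold of 2.04. *Pgam1* had 149, 156, 121 and 195 FPKM. *Eno1*, the enolase of most tissues, had 251, 265, 199 and 307 FPKM. These 3 were ordered alike, lowest in E18.5 wild type and highest in E18.5 *Tbx18GFP/GFP*. *Eno2*, the enolase of neurons, had 11.1, 11.8, 7.29 and 13.4 FPKM, with the 12 neuron markers summing to 784, 660, 525 and 667 FPKM. Of these markers 2 were higher and 10 lower in *Tbx18GFP/GFP* at E16.5. At E18.5, 6 were higher and 6 lower, with a median log2 of 0.02. The part of neurons in the *Eno2* values was not tested. *Pkm2*, the pyruvate kinase row, was even at 186, 198, 193 and 214 FPKM. An overlapping row, LOC100504435, had 226 to 314 FPKM. *Pgam2* had 4.53 FPKM in E18.5 wild type and 5.60 in E18.5 *Tbx18GFP/GFP*, a fold of 1.24 whose interval, 0.942 to 1.61, included 1. In the GENCODE annotation 82.5% of the 50-base stretches of the *Gapdh* transcript occur in other annotated genes, 72.2% of those of *Eno1*, 68.0% of *Pgk1*, 41.5% of *Pgam1* and 34.4% of *Pkm2*, and of the HIF targets 62.4% of *Bnip3* and 36.6% of *Higd1a*, so the levels of these 7 are uncertain. The other members share 27.0% or less, and *Slc16a3*, *P4ha2* and *Pgam2* none.

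Oxygen sensing and HIF targets were divided at E18.5. *Hif1a*, the oxygen-controlled subunit of HIF, had 35.7, 35.8, 47.1 and 36.3 FPKM. Its 3 libraries other than E18.5 wild type were level, and in that library it was higher, a log2 fold change of -0.37 for *Tbx18GFP/GFP*. The prolyl hydroxylases that mark HIF for destruction went apart, with *Egln1* at 20.4, 21.0, 13.5 and 23.8 FPKM and *Egln3*, itself a HIF target, at 10.8, 9.05, 15.8 and 12.4 FPKM. *Egln1* was thus lowest and *Egln3* highest in E18.5 wild type, with log2 fold changes of 0.82 and -0.35 between the E18.5 genotypes.

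Among the 9 HIF targets, *P4ha2* and *Car9* passed 2-fold upward at E18.5, where 15.1% of all genes did. *Car9* was counted only because it reached 1 FPKM in the *Tbx18GFP/GFP* library, where it was higher. With 1 FPKM required in both libraries, 1 of 8 targets (12.5%) passed 2-fold upward, against 13% of all genes. *P4ha2*, a catalytic subunit of collagen prolyl 4-hydroxylase, had 15.8, 16.46, 10.2 and 21.7 FPKM, a fold of 2.12 (1.94 to 2.32). *Car9* had a fold of 2.31 with a wide interval of 1.52 to 3.57, and an overlapping row, LOC100503819, had 1.41 to 3.11 FPKM. *Higd1a*, a small mitochondrial protein, had 16.3, 15.7, 11.2 and 21.8 FPKM, a fold of 1.96. *P4ha1*, the other catalytic subunit, had 23.4, 25.4, 22.2 and 31.6 FPKM. The same direction was smaller for *Ankrd37* (5.69 to 7.35 FPKM), *Bnip3*, a mitochondrial protein of mitophagy (30.9 to 41.6 FPKM), and *Vegfa*, the main angiogenic growth factor (40.6 to 43.7 FPKM), and it changed sign for these 3 under another scaling. *Vegfa* varied least of all 35, its highest level being 1.08-fold its lowest, and the summed markers of endothelial cells, on which VEGF acts, were 133, 152, 130 and 144 FPKM. *Adm*, a vasodilator peptide, had 4.13, 3.88, 6.11 and 5.20 FPKM and was lower in *Tbx18GFP/GFP* at E18.5, with a log2 fold change of -0.23. *Ndrg1*, a stress-responsive gene, had 14.1, 15.3, 17.7 and 17.2 FPKM and a log2 fold change of -0.04. With the median shift taken off, the 12 oxygen and HIF genes had a median of -0.01 at E18.5 and the 23 glycolysis genes one of 0.34, and with the trend subtracted these were -0.09 and 0.13. At either side of the 2-fold line stood *Slc2a1* (2.003) and *Pgk1* (2.04), and *Higd1a* (1.96) and *Slc16a1* (1.95).

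**Figure D3:**
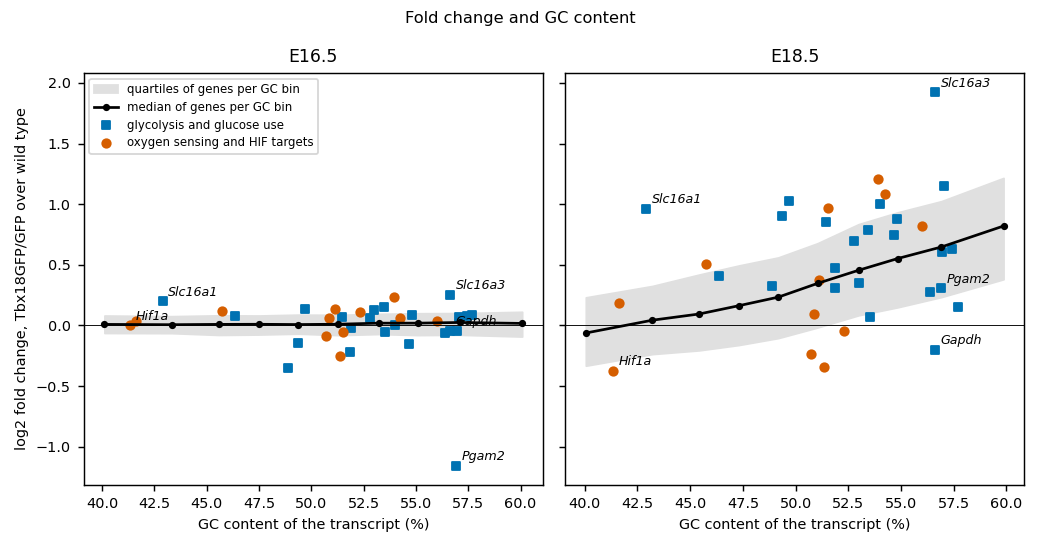
Log2 fold change of *Tbx18GFP/GFP* over wild type against the GC content of the transcript (%) at E16.5 (left) and E18.5 (right), with the median (line) and quartiles (grey) of all genes in 10 bins of GC content. The line is flat at E16.5 and runs from -0.06 to 0.82 at E18.5, where *Slc16a3* and *Slc16a1* lie above the grey band and *Gapdh* and *Hif1a* below it.

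The GC content of these genes ran from 41.3% to 57.7%, with a median of 52.5% against 50.1% over all genes. At E18.5 the median log2 fold change of all genes was -0.06 in the lowest and 0.82 in the highest of 10 bins of GC content. *Slc16a1*, with a GC content of 42.9%, was far above genes of like GC content, and its log2 fold change of 0.96 became 0.94 with the trend subtracted. *Gapdh*, with 56.6%, was far below them, and its -0.20 became -0.97. With the trend subtracted *Pfkl* came to 0.55, *Pgk1* to 0.61, *P4ha2* to 0.50, *Slc2a1* to 0.50 and *Car9* to 0.49, each about as far from 0 as *Slc2a3* at 0.68 and *Higd1a* at 0.51.

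Between E16.5 and E18.5 the members' medians had opposite signs in the 2 genotypes as deposited, though not under every scaling. In wild type 10 of the 34 tested were higher at E18.5 and 24 lower, where 27.7% of all 14807 genes were higher. The median log2 fold change was -0.32 against -0.35 over all genes, so the members lay where genes in general lay. Under the 4 other scalings 16 to 23 were higher, with 17 under median centring (48.4% of all genes) and 23 under the subtracted trend (48.5%). The members' medians under these 2 scalings were 0.00789 and 0.13. In that comparison 3 passed 2-fold downward, *Slc2a3*, *Pgam2* and *Slc16a3*, where 16.8% of all genes did. In *Tbx18GFP/GFP* 32 of 35 were higher at E18.5, where 35.3% of 14713 genes were higher, and the median was 0.18 against -0.06 over all genes. No member passed 2-fold in *Tbx18GFP/GFP*, where 1.35% of all genes were at least 2-fold higher and 0.571% at least 2-fold lower, and 1 passed 1.5-fold upward, where 3% of all genes did. These comparisons do not share a library with each other, and the one in *Tbx18GFP/GFP* does not use the E18.5 wild type library.

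The difference in *Tbx18GFP/GFP* was small and ran through nearly every member. The gene past 1.5-fold was *Pfkp*, at 1.76-fold, whose transcript overlaps that of *Pitrm1*. Behind it came *Slc16a3* (1.47-fold), *Car9* (1.43), *Higd1a* (1.39), *Egln3* (1.37), *Adm* (1.34), *Bnip3* (1.32) and *P4ha2* (1.32). The main enzymes followed at 1.29-fold for *Aldoa*, 1.27 for *Ldha*, 1.25 for *Pgam1* and 1.22 for *Pgk1*. *Slc2a3*, *Hk2* and *Pfkm* were the 3 lower genes, none below 0.942-fold. The direction was shared by the 12 oxygen and HIF genes (median log2 0.35) and by 20 of the 23 glycolysis genes (0.17), of which *Hif1a* alone turned lower under another scaling, with equal library sums. *Car9*, at 0.895 and 1.28 FPKM, was counted only because it reached 1 FPKM in the library where it was higher, and without it the count was 31 of 34 members. With the median shift of all genes taken off, the median of the 35 came to 0.25, and with the trend subtracted 0.29, and 31 of them were higher under each of the 4 other scalings. All genes were not counted over these scalings together. By single scaling, 33 were higher with median centring (49.9% of all genes) and 34 with the trend subtracted (50.5%). The smooth muscle markers moved with this comparison, with all 8 higher at E18.5 in *Tbx18GFP/GFP*, a median log2 of 2.53 and summed levels of 613 and 3656 FPKM. In wild type those sums were 1160 and 1338 FPKM. The part of smooth muscle in the members' difference was not tested.

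Set against the E16.5 wild type library instead, the E18.5 *Tbx18GFP/GFP* library gave a like count. There 30 of 35 members were higher, where 39.8% of 14766 genes were, with a median log2 fold change of 0.27 against -0.04 over all genes, and the 12 oxygen and HIF genes were among the 30. *Car9* could again be counted only as higher, and without it the count was 29 of 34 members, against 39.7% of the genes that reached 1 FPKM in both libraries. With equal library sums *Hk1*, *Gpi1*, *Gapdh*, *Hif1a* and *Vegfa* turned lower. This comparison and the one between stages in *Tbx18GFP/GFP* share the E18.5 *Tbx18GFP/GFP* library. The 5 lower genes were *Slc2a3*, *Hk2*, *Pfkm*, *Aldoc* and *Pgam2*, which were also the 5 genes with their highest level in E16.5 wild type. *Pgam2*, at 0.523-fold, was the lowest of them. All 8 smooth muscle markers were higher in this comparison too, with a median log2 of 1.48 and summed levels of 1160 and 3656 FPKM, and their part was not tested.

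**Figure D4:**
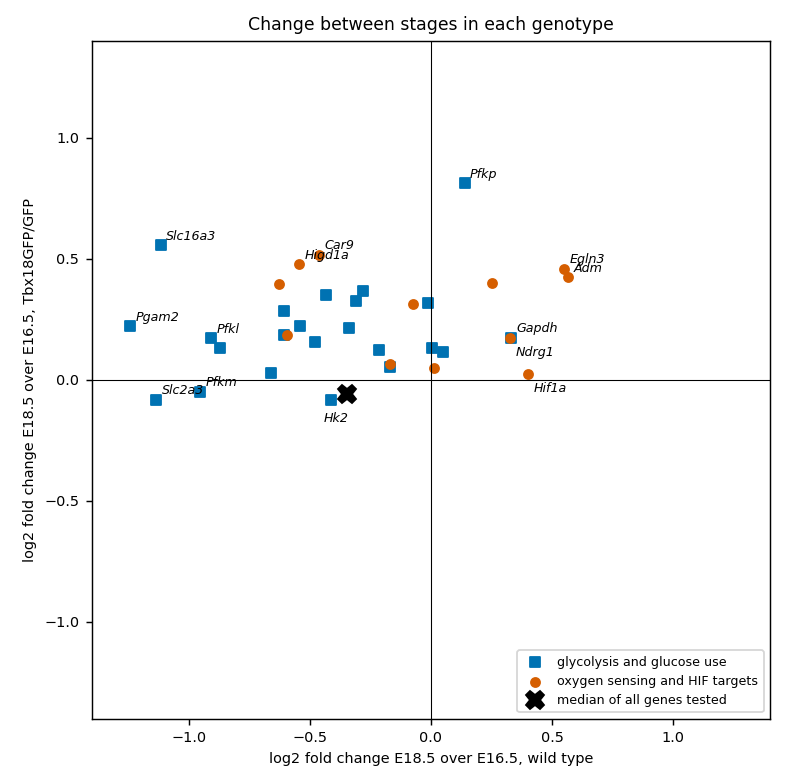
Log2 fold change of E18.5 over E16.5 in wild type (horizontal) and in *Tbx18GFP/GFP* (vertical), 1 point per gene, with a cross at the median of all genes tested (-0.35 and -0.06). All points but those of *Slc2a3*, *Hk2* and *Pfkm* lie above 0 on the vertical axis, and *Slc16a3* and *Pgam2* lie furthest to the left among them. *Car9*, under 1 FPKM in both wild type libraries, is plotted but not counted there.

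Ordering the 4 libraries for each gene gave the E18.5 *Tbx18GFP/GFP* library as the highest in 25 of the 35 members, where it was the highest in 20% of all 15023 genes. *Car9* reached 1 FPKM in that library only, so it could be counted only as highest there. The same holds for the count among 3 libraries given below. The E18.5 wild type library was the lowest in 25 of the members, where it was the lowest in 63.7% of all genes. The E16.5 *Tbx18GFP/GFP* library was the highest in none, where it was so in 32.2% of all genes. Of the remaining 10 members, 5 were highest in E18.5 wild type (*Gapdh*, *Hif1a*, *Egln3*, *Adm* and *Ndrg1*), where 21.9% of all genes were, and 5 in E16.5 wild type, where 25.9% were. The count of members highest in E18.5 *Tbx18GFP/GFP* was 20 with the libraries centred on their medians (20.7% of all genes), 16 with equal library sums (7.83%), 16 with the trend subtracted (22.9%) and 30 of 35 among the 3 libraries other than E18.5 wild type (26.0%).

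Within families of related genes, counted over the members only, the shares of summed FPKM were more even than the levels. *Ldha* made up 77.7%, 77.0%, 74.4% and 80.4% of the lactate dehydrogenase pair. *Hk1* held 75.4% to 78.3% of the *Hk1* and *Hk2* pair, and *Aldoa* 95.9% to 97.1% of the *Aldoa* and *Aldoc* pair. *Eno1* held 95.7% to 96.5% of the *Eno1* and *Eno2* pair. *Eno3*, not a member and left out of that pair, had 23.7, 14.6, 8.46 and 23.2 FPKM, more than *Eno2* in every library. Wider spans were seen where E18.5 wild type parted from the others. *Slc16a3* held 61.7%, 62.6%, 51.9% and 67.8% of the monocarboxylate transporter pair, and *P4ha2* held 40.3%, 39.3%, 31.5% and 40.7% of the collagen prolyl 4-hydroxylase pair. *Egln3* held 53.9% of the *Egln1* and *Egln3* pair in E18.5 wild type and 30.2% to 34.6% elsewhere. *Egln2*, the third HIF prolyl hydroxylase, is not a member and was left out of that pair. Among the phosphofructokinases *Pfkp* held 17.2% and 14.2% at E16.5 and 30.3% and 21.5% at E18.5, in wild type and *Tbx18GFP/GFP*. It was thus a larger part at E18.5 in both genotypes, as *Pfkm* was a smaller part. *Pgam2* was 6.69% of the phosphoglycerate mutases in E16.5 wild type and 2.79% to 3.62% in the other 3 libraries.

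**Figure D5:**
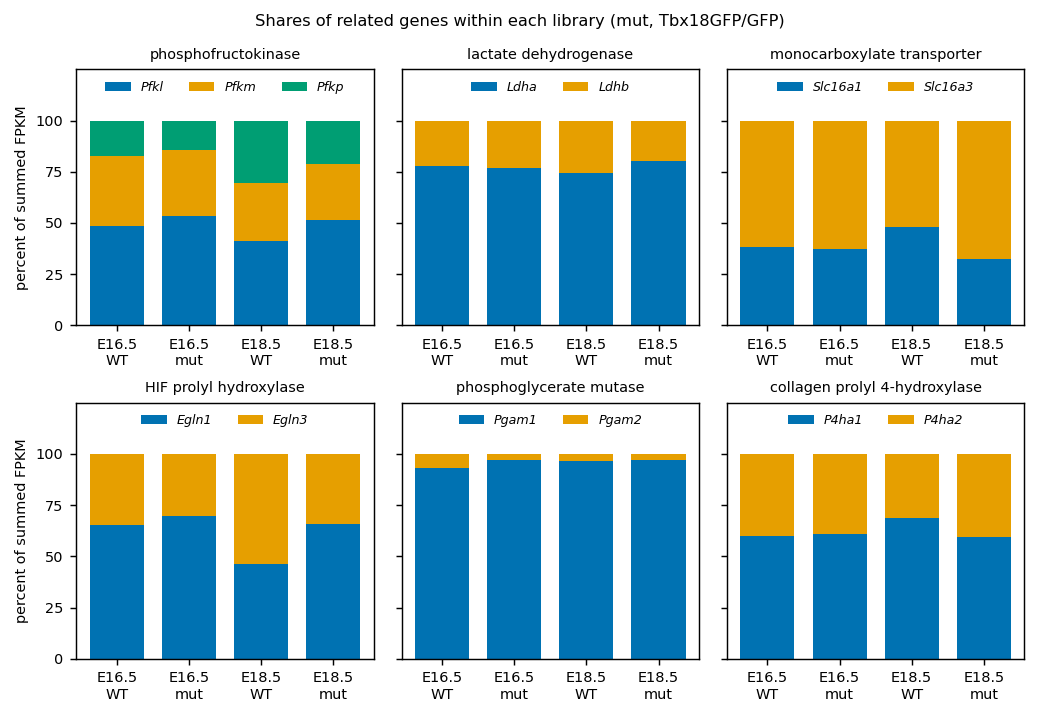
Share of each gene in the summed FPKM of the members of its family (percent, bars from 0) in the 4 libraries for 6 families. Genes outside the members, such as *Egln2*, are left out. The E18.5 wild type bar differs most for the *Egln1* and *Egln3* pair, where *Egln3* holds 53.9%, and the phosphofructokinases, where *Pfkp* holds 30.3%.

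Other genes of these pathways were taken from a pair of lists. Of 40 other glycolysis genes (further isozymes, regulators and side branches) 39 were found and 25 had at least 1 FPKM, and of 56 other genes of the HIF system and its targets 55 were found and 53 had at least 1 FPKM. At E16.5, 8 of the 25 (32.0%) and 27 of the 53 (50.9%) were higher in *Tbx18GFP/GFP*, against 54.2% of all genes, and none passed 2-fold. At E18.5, 21 of the 25 (84.0%) and 37 of the 53 (69.8%) were higher, against 69.5% of all genes. Of these, 6 of the 25 (24%) and 6 of the 53 (11.3%) passed 2-fold upward, against 15.1% of all genes, and 1 of the 53 (1.89%) passed it downward, against 2.89%. *Pfkfb3*, *Pfkfb4* and *Slc2a12* stood in both lists, and *Pfkfb4* (2.88-fold) was counted past 2-fold in both. With the libraries centred on their medians 15 of the 25 and 27 of the 53 were higher at E18.5, against 51.3% of all genes. Between stages in *Tbx18GFP/GFP*, 17 of the 25 (68.0%, median log2 0.07) and 26 of the 53 (49.1%, median log2 -0.01) were higher, against 35.3% of all genes.

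Of the other glycolysis genes, 3 that reached 10 FPKM passed 2-fold at E18.5. *Eno3*, the muscle enolase, had 23.7, 14.6, 8.46 and 23.2 FPKM, a fold of 2.75. It is itself one of the 16 skeletal muscle markers, whose summed levels were 1198, 533, 705 and 1020 FPKM. As a set these markers did not move with *Eno3* at E18.5, where 7 were higher and 9 lower in *Tbx18GFP/GFP* (median log2 -0.10). The E18.5 sums lean on *Acta1*, at 110 (wild type) against 455 FPKM (*Tbx18GFP/GFP*). *Bpgm*, the red cell enzyme that makes 2,3-bisphosphoglycerate, had 21.3, 28.6, 9.73 and 22.1 FPKM, with the summed erythroid markers at 17927, 28872, 5861 and 28491 FPKM. *Minpp1*, an inositol phosphate phosphatase, had 14.5, 15.5, 6.89 and 14.1 FPKM. All 3 were lowest in E18.5 wild type and near their E16.5 wild type level in E18.5 *Tbx18GFP/GFP*. In the HIF list *Egln2*, the third prolyl hydroxylase, had 24.1, 23.1, 9.80 and 21.3 FPKM, and *Kdm4b*, a histone demethylase, 13.3, 12.9, 5.31 and 12.1 FPKM. *Stc1*, a secreted glycoprotein, was the 1 gene past 2-fold downward, with 5.92, 8.04, 12.4 and 6.07 FPKM. For each of these 3 the E18.5 wild type library was the one that differed.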

How the data were processed

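Whole UGS RNA of 3 male embryos per group was pooled into 1 stranded poly(A) library each, and single-end reads were processed by the authors with Tophat at default options and expression estimated with Cufflinks. The submitters' processing notes name CASAVA 1.8.2, Trimmomatic 0.30, TopHat2 2.1.0 and Cufflinks 2.2.1. The deposited values are FPKM per gene and library as the authors' Cufflinks run gave them, and the genome build is not given in the sources used here. Coordinates were not printed from that table. No further scaling between libraries is stated.

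The folds are ratios of the deposited FPKM without a pseudocount, for genes that reached 1 FPKM in one of the libraries compared, and medians of lists use a pseudocount of 0.1. With 1 library per group no test was made, and genes were counted at 2-fold, beside the share of all genes tested. Mapped reads were estimated from the FPKM of single reads (within 1%) on olfactory receptor genes, with a fragment length of 200 bases assumed. Intervals are 95% exact binomial intervals on the estimated reads, which leave out all but counting error. Length and GC content came from GENCODE vM21 transcripts by symbol for 23077 rows (93.7% of the rows that reached 1 FPKM anywhere), and a lowess trend (span 0.3) on length and then GC was subtracted as an alternative, after a check on simulated data. Tophat at its default options does not use strand, so reads of overlapping genes cannot be told apart. Promoters are RefSeq sequences of build GRCm38.p6.

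The members and all lists were chosen with earlier results of these data known. The genes named are the 35 members, and of the wider glycolysis and HIF lists those past 2-fold between genotypes that had 10 FPKM or more in the library where they were higher and 1 FPKM or more in the other. Marker lists covered skeletal muscle, smooth muscle, neurons, red cells, endothelium, the UGS epithelium and mesenchyme, and immediate early genes. The alternatives were equal library sums, median centring, upper quartile scaling (75th percentile), the subtracted trend, pseudocounts of 0.01 and 1, a minimum of 5 FPKM, and libraries left out. The tools were pandas 2.3.3, numpy 2.4.6, statsmodels 0.14.6, scipy 1.17.1 and matplotlib 3.10.9 under Python 3.11.15.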

Additional observations from a re-analysis of the deposited data

Results flagged for a closer look

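With 1 library per group, opposite directions alone were common: between stages 24 of 34 members were lower at E18.5 in wild type and 32 of 35 were higher in *Tbx18GFP/GFP*. Given here are the members whose difference between genotypes or between stages ran in opposite directions in the 2 groups compared and passed 2-fold in at least 1 of them, and the median of the members where it changed sign. None of these differences between groups was tested. The log2 fold change of *Pgam2* for *Tbx18GFP/GFP* over wild type stood at -1.16 for E16.5 but 0.31 for E18.5, and for E18.5 over E16.5 it was -1.24 in wild type and 0.22 in *Tbx18GFP/GFP*, which restates the high level in the E16.5 wild type library. For *Slc16a3* the log2 fold change of E18.5 over E16.5 was -1.12 in wild type and 0.55 in *Tbx18GFP/GFP*. The median of all members for the same comparison was -0.32 in wild type and 0.18 in *Tbx18GFP/GFP*, where all genes tested had -0.35 and -0.06. With median centring the wild type median was 0.00789, and with the trend subtracted 0.13, so the opposite sign did not hold under these scalings.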

How the results depend on the processing

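No paired analysis was possible because each group had 1 library. The pseudocounts and the minimum of 5 FPKM changed no count of members by over 1.5 times. Scaling the libraries did. With equal library sums the E16.5 comparison of genotypes had a median log2 of -0.059, against -0.094 over all genes, with 8 members higher in *Tbx18GFP/GFP*. The E18.5 comparison then had a median of 0.080, against -0.124 over all genes, with 19 higher. At E18.5 the number past 2-fold was 6 as deposited and 1, *Slc16a3*, with equal sums, median centring, upper quartile scaling or the trend subtracted. Of all genes, 2231 of 14733 were at least 2-fold higher as deposited and 1206 with median centring. With the trend subtracted 417 of 13819 were. The members' medians under the last 3 scalings were 0.21, 0.24 and 0.12, against 0.011, 0.038 and 0.011 over all genes. For E18.5 over E16.5 in wild type the number past 2-fold went from 3 to 0 with equal sums, median centring or upper quartile scaling, with medians of -0.031, 0.00789 and -0.028 and 16, 17 and 16 members higher, and the subtracted trend gave 0.13 with 23 higher. In *Tbx18GFP/GFP* the median of this comparison was 0.29 with the trend subtracted. For E18.5 *Tbx18GFP/GFP* over E16.5 wild type, equal sums gave 1 member past 2-fold (*Pgam2*, downward). The median was then 0.14, against -0.17 over all genes, and the subtracted trend gave a median of 0.34, against 0.00032. The number of members highest in E18.5 *Tbx18GFP/GFP* was 16 with equal sums (7.83% of all genes) and 16 with the trend subtracted (22.9%). Of 1038 folds of single members under all alternatives, 88 had the opposite sign, and none of these was past 2-fold as deposited. The cause of these moves was not tested. Depth limits *Car9* most, with an estimated 29 reads in E18.5 wild type.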
